A study of Mus musculus with 10 samples.

Results

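The 10 genes described here were taken by name from the tables of a single-cell study of the mouse small-intestinal crypt: Lyz1, Ang4, Mmp7, Itln1, Mptx1, Mptx2, Clps, Habp2, Nupr1 and Pnliprp2. All 10 were listed in each of the 10 libraries, among 18022 genes in all. They were grouped as genes of Paneth cell secretion other than the defensins, and the question was how their levels in wells rich in defensin transcripts stand beside those in goblet wells. They were chosen with earlier results of these data known, so their direction in defensin-rich wells is not independent evidence.

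Paneth cells sit at the crypt base beside the stem cells and store large granules of antimicrobial proteins, of which the alpha-defensins (Defa genes) are the best known. Goblet cells make the mucus of the gut, with Muc2 as its main gel-forming mucin. Both arise from the same secretory progenitors, so a transcript can be common to both or taken up by one of them during maturation.

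Transcripts were counted by CEL-seq2, which primes on the poly(A) tail and gives each molecule a random barcode, in small-intestinal crypt cells of C57Bl/6 mice. In 3 picked libraries each well received a doublet or triplet of cells by mouth pipette. In 7 sorted libraries each well received a single cell, with title codes GK5a for sorted replicates 1 to 5 and GK5b for sorted replicates 6 and 7; the picked libraries carry JC codes, so code and group cannot be told apart. The labels name no separate animals, so p-values measure the spread between libraries, which may be technical. The picked and sorted libraries also came from mice of opposite sex by their transcripts, with Xist at 115 to 155 transcripts per 1000000 (CPM) in picked libraries and 0 to 0.978 CPM in sorted libraries.

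A well entered the counts when its endogenous genes summed to 1000 transcripts or more, which kept 501 picked and 1615 sorted wells, and no profile was shared between any of these 2116 wells. The used wells of a library held 821829 to 4832581 transcripts, with a median per well of 2756 to 16427. A well was called defensin-rich when Defa symbols made up at least 5% of its transcripts, and goblet when Muc2, Fcgbp, Zg16 and Clca3 together made up at least 2%. This gave 59 defensin-rich wells (22 picked, 37 sorted), 393 goblet wells (31 picked, 362 sorted), 0 wells of both kinds and 1664 other wells (448 picked, 1216 sorted). Defensin-rich wells made up 4.68% ± 1.79 of the wells in picked libraries and 2.39% ± 1.47 in sorted libraries (SD, n = 3 and 7), a difference of 2.29 percentage points (two-sided exact permutation test, p = 0.1). With the threshold at 2% Defa the difference was 4.22 percentage points (exact permutation p = 0.0167). Just inside the threshold, at 5 to 6% Defa, lay 5 picked wells and 0 sorted wells, and just outside it, at 4 to 5%, lay 1 picked well and 4 sorted wells. For the goblet threshold, 5 picked and 47 sorted wells lay at 2 to 2.5%, and 11 picked and 35 sorted wells at 1.5 to 2%.

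All 10 genes stood far above the other wells in defensin-rich wells, and they then parted in goblet wells. Lyz1, Ang4, Mmp7, Itln1, Mptx1 and Nupr1 were called higher in goblet wells than in other wells as well. Mptx2, Clps, Habp2 and Pnliprp2 were not called there, which does not show that goblet wells lack them, and for Clps and Habp2 this turned on the setting, as given below. The sizes differed widely among these 6: the goblet-well level was 28.4% of the defensin-rich level for Mmp7 and 25.8% for Nupr1, and 0.599% for Lyz1 (median of 8 libraries).

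**Figure D1:**
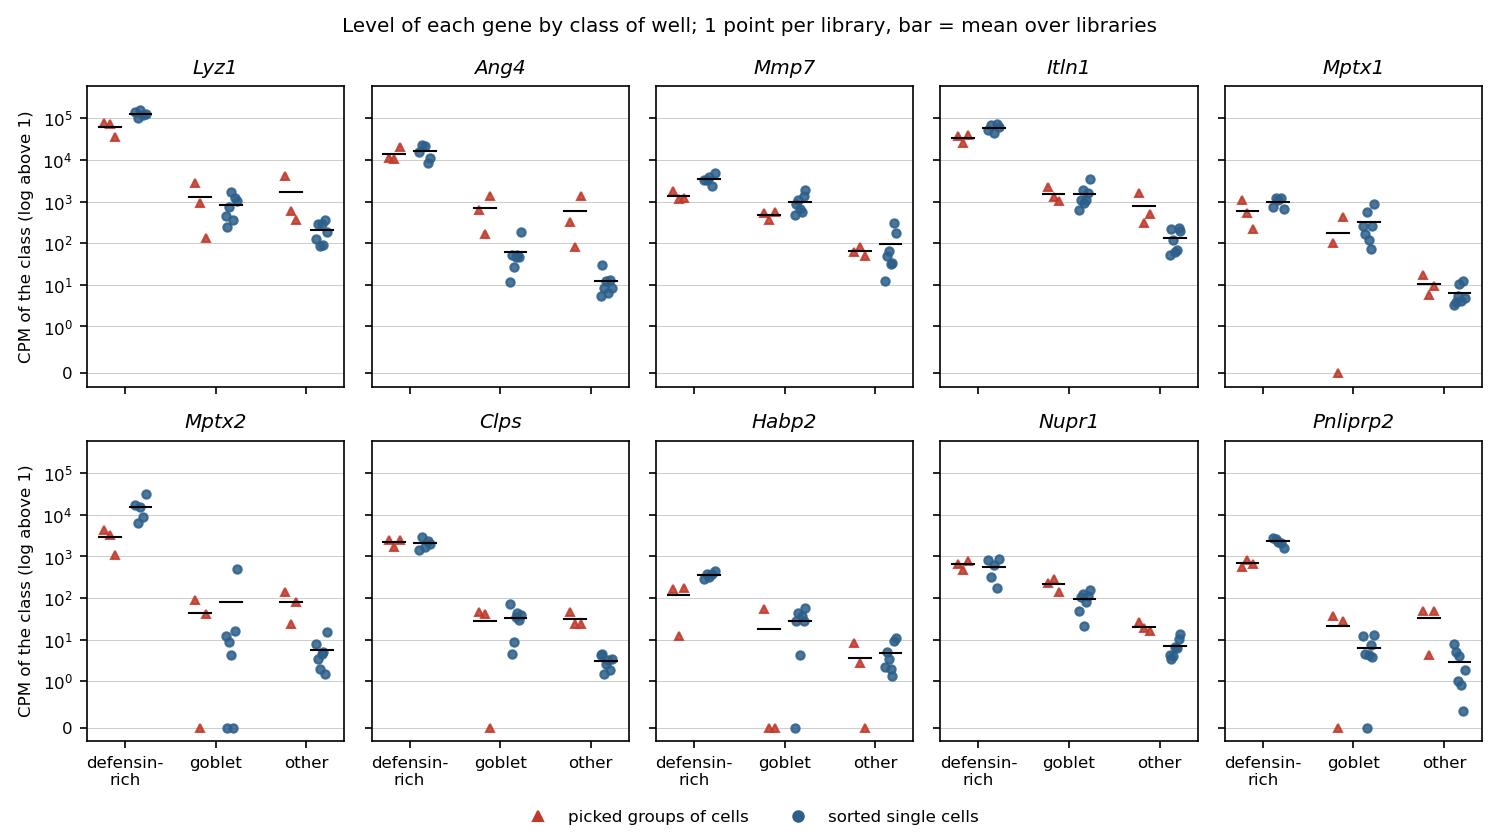
Level of each gene in CPM (vertical axis, logarithmic above 1) in defensin-rich, goblet and other wells, with 1 point per library holding at least 3 wells of the class (triangles, picked; circles, sorted) and a bar at the mean. Every gene was highest in defensin-rich wells on average, while Mmp7, Nupr1 and Mptx1 kept goblet levels within reach of it and Mptx2 and Pnliprp2 did not.

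Defensin-rich wells were set against other wells within the 8 libraries that held at least 3 of each (picked replicates 1 to 3 and sorted replicates 1, 2, 4, 5 and 7), with limma on log2(CPM + 1) of summed wells and the library as a block. All 10 genes were called higher at a Benjamini-Hochberg adjusted p under 0.05, in 8 of 8 libraries each, where 1.75% of the 8060 genes tested were called higher. The median log2 difference was 8.26 over the 10 genes and -2.01 over all genes tested. The defensin-rich sums held 22587 to 289162 transcripts and the other sums 716451 to 3137910. On this scale low genes lie lower in the shallower sum by construction, so only higher calls are used here and in the next 2 comparisons. Mptx1 and Habp2 passed the filter on low values through their defensin-rich level alone, so their calls in this comparison add no support.

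Lyz1, the lysozyme that cuts bacterial cell walls and is stored in Paneth granules, was the most abundant of the 10. Its level in the defensin-rich wells of the picked libraries was 77821, 74571 and 35102 CPM, and in those of the sorted libraries 142758, 103100, 160667, 121019 and 126723 CPM. In other wells it was at 4166, 587 and 371 CPM in picked libraries, and at 87.8 to 364 CPM, median 190 CPM, in the 7 sorted libraries. No library came near its own defensin-rich level in other wells, and the log2 difference was 8.87 ± 0.35 (SE; limma, adjusted p = 5.77e-19). The single defensin-rich well of sorted replicate 3, left out of the test, was at 202245 CPM, and the 2 such wells of sorted replicate 6 summed to 88536 CPM. In the well with most of it 3570 of the 4096 possible barcodes of Lyz1 were taken, so its highest values rest on the correction for shared barcodes.

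Lyz1 has a neighbouring paralog, Lyz2, the lysozyme of macrophages, which lies 5475 bases away on chromosome 10. The 300 bases around their start sites, shown because the pair share most of this sequence and were counted at very different levels, were 82.5% identical (RefSeq, GRCm38.p6, 250 bases before to 50 after the start; Lyz1 at chr10:117292819-117293118, minus strand; Lyz2 at chr10:117282223-117282522, minus strand; no motif is in capitals).
Lyz1: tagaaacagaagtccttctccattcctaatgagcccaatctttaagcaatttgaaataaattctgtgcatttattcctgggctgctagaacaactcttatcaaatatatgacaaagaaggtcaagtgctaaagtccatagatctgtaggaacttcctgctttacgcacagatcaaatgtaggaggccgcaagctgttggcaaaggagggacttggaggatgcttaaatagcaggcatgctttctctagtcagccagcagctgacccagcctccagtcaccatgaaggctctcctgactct
Lyz2: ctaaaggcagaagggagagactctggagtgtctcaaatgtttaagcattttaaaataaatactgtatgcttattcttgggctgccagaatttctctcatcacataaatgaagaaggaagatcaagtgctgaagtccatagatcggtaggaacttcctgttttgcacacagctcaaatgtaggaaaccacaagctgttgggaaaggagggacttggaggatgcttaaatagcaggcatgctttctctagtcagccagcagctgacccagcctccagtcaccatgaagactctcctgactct
Of the 31-base words in the last 500 bases of Lyz1, where CEL-seq2 reads fall, 37.0% also occur in Lyz2, so some reads could have been assigned to either. Lyz2 was nonetheless listed at 10.4, 0 and 0 CPM in the defensin-rich wells of the picked libraries and at 0 CPM in those of sorted replicates 1, 2, 4, 5 and 7.

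Itln1, an intelectin that binds sugars of microbial surfaces, came next. Its defensin-rich level was 36995, 25150 and 40127 CPM in picked libraries and 53991, 68347, 43930, 71512 and 62276 CPM in sorted libraries, and its log2 difference from other wells was 8.61 ± 0.35 (limma, adjusted p = 7.15e-19). Lyz1 and Itln1 held the first 2 ranks among the 10 genes in all 8 libraries. Ang4, an angiogenin-family ribonuclease that kills microbes, held rank 3 or 4, at 11395, 10525 and 20756 CPM in picked libraries and 8689 to 22962 CPM in sorted libraries (log2 difference 9.17 ± 0.52, limma adjusted p = 4.05e-15). Of its end words 20% are shared with Ang5, Ang2, Ang6 or Ang. Ang itself was at 20.3 to 266 CPM in defensin-rich wells.

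Mptx2, a mucosal pentraxin, was at 4361, 3273 and 1064 CPM in picked libraries and at 16887, 6265, 15078, 8799 and 32297 CPM in sorted libraries. Its difference from other wells was the largest of the 10, at 9.41 ± 0.60 (limma, adjusted p = 8.63e-14). Mmp7, the metalloprotease matrilysin that activates the precursors of alpha-defensins in mice, was at 1770, 1164 and 1198 CPM in picked libraries and at 2415 to 4964 CPM in sorted libraries (6.31 ± 0.38). Clps, the colipase that anchors pancreatic lipase to fat droplets, was at 1711 to 2555 CPM in picked and 1428 to 2915 CPM in sorted libraries (8.44 ± 0.49). Pnliprp2, a lipase related to that of the pancreas, was at 545 to 829 CPM in picked and 1613 to 2821 CPM in sorted libraries (8.08 ± 0.63). Both genes of fat digestion stood with the antimicrobial genes in these wells.

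In GRCm38 (GENCODE vM21) Itln1 lies at chr1:171518122-171535294, Ang4 at chr14:51763878-51773590, Clps at chr17:28558149-28560766 and Nupr1 at chr7:126623249-126630861, all on the minus strand. Habp2 lies at chr19:56287137-56320822 and Pnliprp2 at chr19:58759719-58777534, on the plus strand. All are annotated as protein-coding.

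The 3 least abundant genes were Mptx1, Nupr1 and Habp2. Mptx1, a second mucosal pentraxin, was at 221 to 1068 CPM in picked and 652 to 1222 CPM in sorted libraries (log2 difference 7.30 ± 0.59). Nupr1, a small chromatin-associated protein induced by stress and no secreted product, was at 470 to 797 CPM in picked and 178 to 857 CPM in sorted libraries (6.27 ± 0.56). Habp2, a hyaluronan-binding serine protease of plasma, was at 170, 12.3 and 177 CPM in picked libraries and at 293 to 448 CPM in sorted libraries (6.25 ± 0.82, limma adjusted p = 1.08e-06). The picked replicate with 12.3 CPM rested on a single Habp2 transcript. Within a library these ranks do not correct for length, but CEL-seq2 counts 1 end per molecule.

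**Figure D2:**
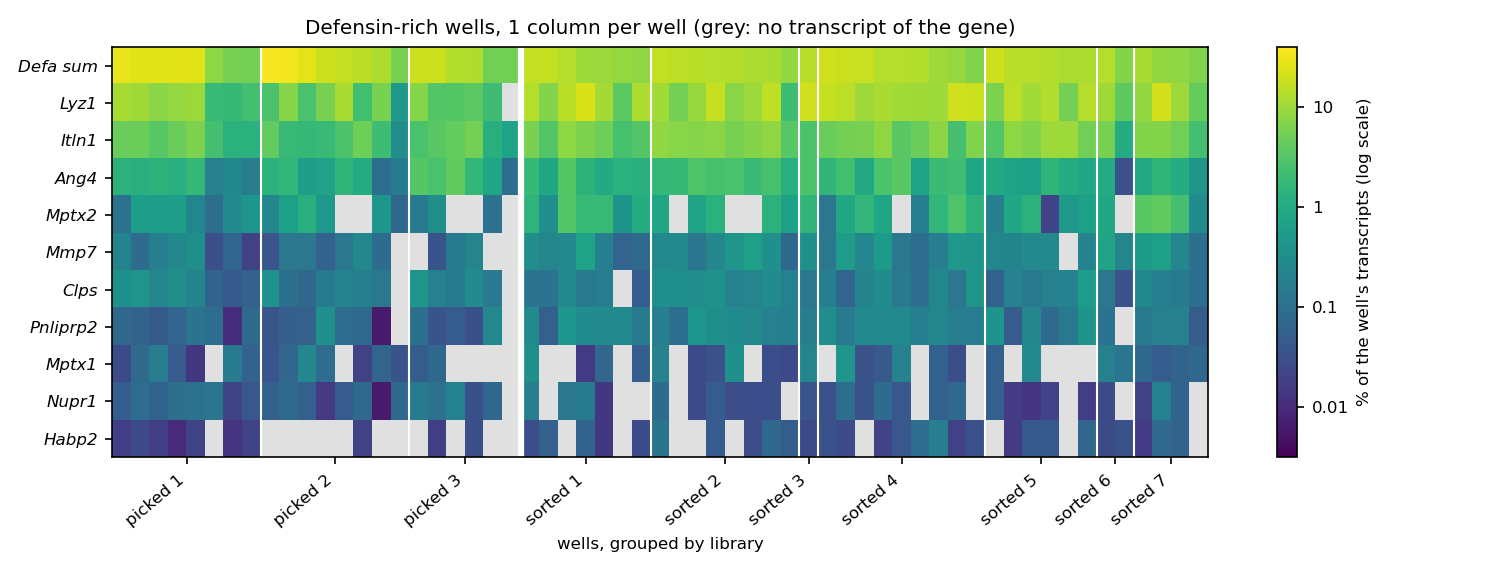
Share of each defensin-rich well's transcripts taken by the Defa genes and by each of the 10 genes (colour, logarithmic, in percent; grey, no transcript), with 1 column per well, picked wells left of sorted wells and libraries divided by white lines. Lyz1 and Itln1 fill nearly every column, while Mptx1, Nupr1 and Habp2 have gaps and Mptx2 is missing from some wells that hold the other genes.

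The share of the 10 genes also differed from well to well. Together they made up 0.859% to 18.7% of a picked defensin-rich well, median 9.90%, and 5.38% to 34.7% of a sorted one, median 21.3%. All 10 were detected in 8 of 22 picked wells and in 16 of 37 sorted wells. Lyz1 took a median 3.51% of a picked well and 10.8% of a sorted well, and Itln1 2.75% of a picked well and 5.73% of a sorted well. Relative spread over sorted wells was narrowest for Itln1 and Lyz1, with coefficients of variation of 0.390 and 0.449, and widest for Mptx1 at 1.37. Over picked wells it was narrowest for Itln1 at 0.556 and Nupr1 at 0.660, with Lyz1 at 0.720, and widest for Habp2 at 1.20. Mptx2 ranged from 0 to 4.02% of a sorted well, with no transcript in 5 of the 37 sorted wells and in 5 of the 22 picked wells. Among pairs of the 10 genes, rank correlation high in both groups was seen between Itln1 and Clps, at a Spearman rho of 0.75 over 22 picked wells and 0.73 over 37 sorted wells. Mptx1 and Mptx2 correlated at 0.85 over the picked wells and 0.18 over the sorted wells. Wells of a library share its chemistry and depth, and these values are descriptions.

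**Figure D3:**
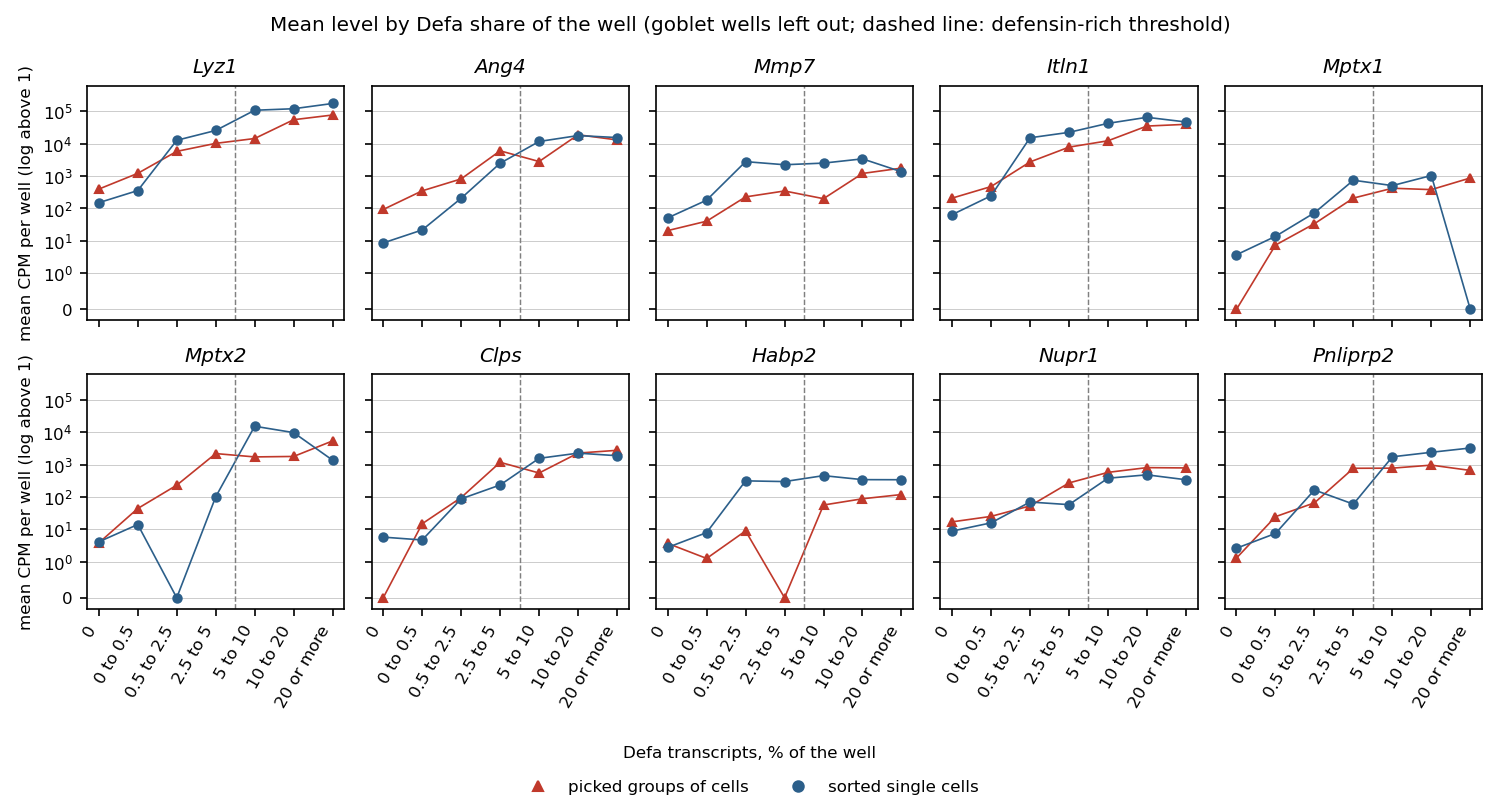
Mean level per well in CPM (vertical axis, logarithmic above 1) over classes of rising Defa share (horizontal axis, percent of the well's transcripts), goblet wells left out, for picked wells (triangles) and sorted wells (circles). From 0.5% Defa upwards the points rest on 4 to 64 picked wells and 1 to 25 sorted wells; the last sorted point is 1 well.

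The genes did not climb together with the Defa share. In the 8 sorted wells with 0.5 to 2.5% Defa, below the threshold, Itln1 was already at 15162 CPM, Lyz1 at 12694 CPM, Mmp7 at 2787 CPM and Habp2 at 313 CPM. In the 11 sorted wells with 5 to 10% Defa, Itln1 was at 42241 CPM, Lyz1 at 107131 CPM, Mmp7 at 2510 CPM and Habp2 at 454 CPM. In sorted wells Mmp7 thus had about the same mean on both sides of the threshold, and Habp2 rose less than Itln1 and Lyz1 did. Mptx2 had no transcript in the 8 sorted wells of 0.5 to 2.5% Defa and a mean of 15147 CPM in the 11 wells of 5 to 10%. Ang4 was at 206 CPM in the lower class and 11660 CPM in the higher class, and Pnliprp2 at 164 CPM and 1728 CPM. These wells are few and were not tested. In picked wells of 0.5 to 2.5% Defa, of which there were 64, Mptx2 was at 230, Mmp7 at 228 and Habp2 at 8.94 CPM. In the 6 picked wells of 5 to 10% Defa they were at 1714, 201 and 56.2 CPM. In the 8 picked wells of 20% Defa or more they were at 5341, 1760 and 118 CPM.

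Goblet wells were set against other wells in all 10 libraries with the same model. Of the 10 genes, 6 were called higher, where 7.31% of the 9702 genes tested were called higher. The median log2 difference was 1.69 over the 10 genes and -0.60 over all genes tested. Habp2 passed the filter on low values through its goblet level alone, so calls of it in this comparison, given below for some settings, add no support.

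Mmp7 was the clearest gene shared with goblet wells. It was at 518, 370 and 562 CPM in picked goblet wells and at 468 to 1943 CPM, median 889 CPM, in sorted goblet wells. In other wells it was at 62.4, 82.5 and 50.6 CPM in picked libraries and at 12.1 to 308 CPM, median 49.4 CPM, in sorted libraries. Goblet wells were above other wells in 10 of 10 libraries, with a log2 difference of 3.74 ± 0.30 (limma, adjusted p = 9.00e-07). Over pooled wells, a Mmp7 transcript was seen in 74.0% of goblet wells, 15.6% of other wells and 5.88% of 102 enterocyte wells set beside them as background, at median depths of 7975, 6342 and 4105 transcripts; after thinning each well to 1000 barcodes the mean shares over libraries were 38.2%, 6.03% and 7.57%, against 62.9%, 17.6% and 19.6% before thinning. The enterocyte means rest on libraries with as few as 1 or 2 such wells. Across wells within a library its closest genes were Spink4, Ccl6 and Retnlb, with mean Pearson r of 0.56, 0.55 and 0.53, over 10, 10 and 9 libraries.

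Nupr1, Itln1 and Mptx1 were also raised in goblet wells. Nupr1 was at 137 to 287 CPM in picked goblet wells and 21.6 to 161 CPM in sorted ones, against 15.9 to 26.4 CPM in picked other wells and 3.45 to 13.7 CPM in sorted other wells (log2 difference 3.55 ± 0.33, 10 of 10 libraries, limma adjusted p = 3.61e-06). Its closest genes across wells were Ccl6, Muc2 and Ramp1, with mean r of 0.43, 0.37 and 0.36. Itln1 was at 1014 to 2207 CPM in picked goblet wells and 637 to 3401 CPM in sorted ones, against 314 to 1585 CPM in picked other wells and 51.5 to 238 CPM in sorted other wells (2.99 ± 0.38, 10 of 10 libraries, limma adjusted p = 6.47e-05). Picked and sorted goblet wells overlapped for both genes. The highest well held from 12.7% (sorted replicate 6) to 71.8% (sorted replicate 1) of a library's goblet-well Itln1. Without that well the level was 190 CPM in sorted replicate 1. In sorted replicate 7, where that well had 3.79% Defa, it was 2160 CPM. Within the picked libraries alone neither gene was called, Itln1 at 1.19 and Nupr1 at 3.30 (limma, adjusted p = 0.203 and 0.0555). Lyz1 and Ang4 were called with smaller differences, 1.36 ± 0.43 and 1.75 ± 0.39 (limma, adjusted p = 0.0272 and 0.00397, higher in 8 and 9 of 10 libraries).

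The Lyz1 call is the least firm of these. It was lost when any of sorted replicates 1, 3, 4, 5, 6 or 7 was left out, with adjusted p between 0.0529 and 0.0682, and within the picked libraries alone the difference was -0.47. In that group the other wells themselves carried Lyz1 at up to 4166 CPM, with a transcript in 103 of the 105 other wells of picked replicate 1. Lyz1 and Ang4 were also not called when wells of at least 4% goblet transcripts were required, at 0.75 and 0.44, nor when defensin-rich wells were defined at 10% Defa, at 0.25 and 0.31 (limma, adjusted p = 0.671 and 0.652). The Defa sum in other wells was 1345 to 4565 CPM in picked libraries and 46.9 to 202 CPM in sorted libraries; its part in the Lyz1 and Ang4 results was not tested.

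Pnliprp2, Clps, Habp2 and Mptx2 showed no called difference in goblet wells. Pnliprp2 was at 36.3, 0 and 27.4 CPM in picked goblet wells and at 0 to 13.1 CPM in sorted ones (log2 difference 0.36 ± 0.53, limma adjusted p = 0.614). Clps was at 45.4, 41.0 and 0 CPM in picked goblet wells and at 4.62 to 71.9 CPM in sorted ones (1.64 ± 0.77, limma adjusted p = 0.119), and Habp2 at 54.4, 0 and 0 CPM and at 0 to 56.3 CPM (1.49 ± 0.64, limma adjusted p = 0.089). Among the sorted libraries alone both were called, Clps at 2.92 and Habp2 at 1.98 (limma, adjusted p = 0.000943 and 0.0295). With all libraries both were also called at a goblet threshold of 1%, at 2.66 and 2.08, and with a pseudocount of 5, at 1.26 and 1.29. Clps was called without picked replicate 3 (2.35), and Habp2 without picked replicate 2 (1.88) or sorted replicate 1 (1.83). Clps stood higher in goblet than in other wells in 9 of 10 libraries and Habp2 in 7. With voom weights Clps, Habp2, Mptx2 and Pnliprp2 were all called, at 2.63, 2.73, 2.53 and 1.28 (limma, adjusted p = 5.03e-05, 3.55e-08, 0.00136 and 0.01001). Mptx2 was at 90.7, 0 and 41.1 CPM in picked goblet wells and at 0 to 16.3 CPM in the sorted ones other than sorted replicate 7 (0.06 ± 0.81, limma adjusted p = 0.959). In picked replicate 2 the 24369 goblet transcripts allow up to 123 CPM for each gene with a count of 0.

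**Figure D4:**
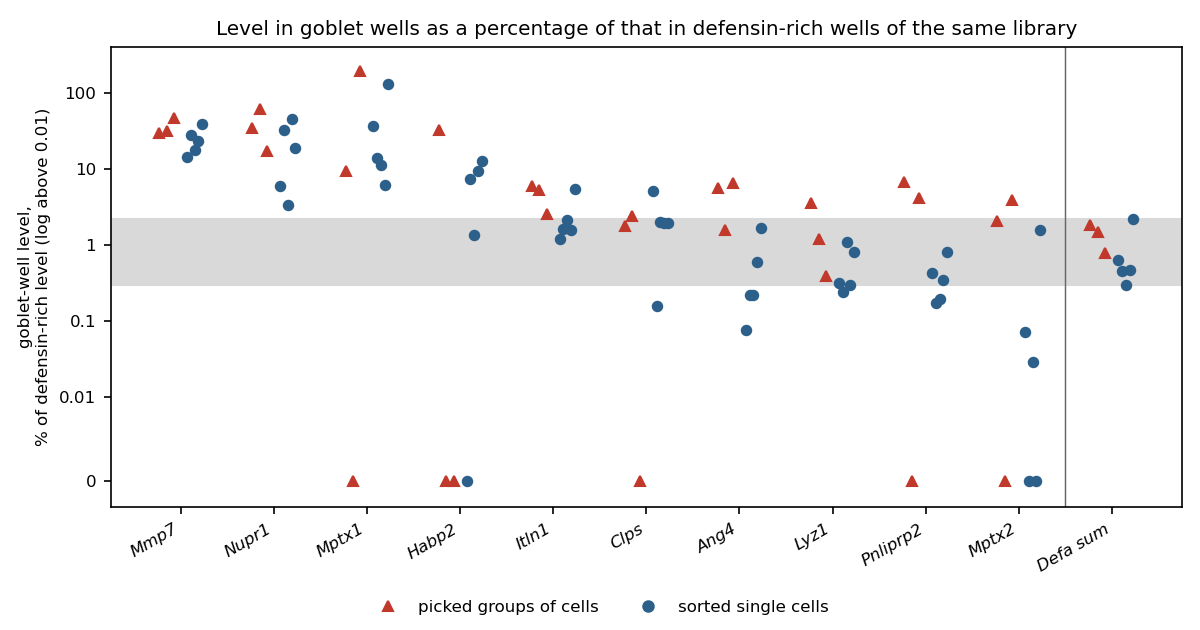
Level in goblet wells as a percentage of the level in defensin-rich wells of the same library (vertical axis, logarithmic above 0.01), with 1 point per library (triangles, picked; circles, sorted), genes ordered by their median; the grey band spans the same percentage for the Defa sum. Mmp7 and Nupr1 lie above the band in every library, whereas Lyz1, Pnliprp2 and Mptx2 lie mostly within or below it. The Defa sum chose the wells, so the band is no independent yardstick.

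The goblet level was set beside that of the Defa genes themselves, which goblet wells hold by definition at under 5% and defensin-rich wells at 5% or more. Over the 8 libraries the Defa sum in goblet wells was 0.706% of its defensin-rich level (median, range 0.298% to 2.17%). Mmp7, at 14.2% to 46.9%, Nupr1, at 3.38% to 61.2%, and Itln1, at 1.18% to 5.97%, exceeded the Defa percentage in 8 of 8 libraries. Mptx1 did so in 7 libraries, Habp2 in 5, Ang4 and Clps in 4, and Lyz1, Mptx2 and Pnliprp2 in 2. The rule lowers the Defa percentage by construction, so these counts are a description and allow no conclusion for any gene.

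Set directly against goblet wells in the same 8 libraries, defensin-rich wells were higher for all 10 genes, where 4.55% of the 1582 genes tested were called higher. The smallest log2 differences were those of Mmp7 (3.03 ± 0.24), Nupr1 (3.48 ± 0.44) and Mptx1 (3.89 ± 0.83), and the largest that of Mptx2 (10.32 ± 0.94; limma, adjusted p = 2.35e-06, 0.000172, 0.00861 and 6.82e-06). Mptx1 was higher in 7 of the 8 libraries after scaling and the other 9 genes in all 8. In CPM before scaling, Mptx1 was lower in defensin-rich than in goblet wells in picked replicate 3 (221 against 426 CPM) and in sorted replicate 7 (652 against 863 CPM). Clps, Habp2 and Pnliprp2 passed the filter here through their defensin-rich level alone, so that their calls in this comparison add no support. Summed over all used wells, defensin-rich wells held fewer of the transcripts than goblet wells did for 4 genes. They held 24.1% of the Mptx1 transcripts, against 71.0% in goblet wells. For Mmp7 the shares were 16.4% in defensin-rich and 63.0% in goblet wells. For Nupr1 the shares were 35.0% in defensin-rich and 49.3% in goblet wells. For Habp2 the shares were 36.0% in defensin-rich and 39.4% in goblet wells. The picked and sorted libraries differed in this. Of the Mptx1 transcripts, defensin-rich wells held 83.6% and goblet wells 9.84% in picked libraries, and 12.2% and 83.3% in sorted libraries. Of the Mmp7 transcripts, defensin-rich wells held 69.9% and goblet wells 11.8% in picked libraries, and 10.6% and 68.5% in sorted libraries. Of the Nupr1 transcripts, defensin-rich wells held 72.3% and goblet wells 12.2% in picked libraries, and 17.4% and 66.9% in sorted libraries. Of the Habp2 transcripts, defensin-rich wells held 78.3% and goblet wells 8.70% in picked libraries, and 26.6% and 46.2% in sorted libraries. The sorted libraries held 362 of the 393 goblet wells, of which GK5b replicates 6 and 7 held 151 and 90. Goblet wells were 57.2% and 34.5% of the wells there, against 9.01% to 12.5% in the GK5a libraries. The sorted goblet shares of these 4 genes thus rest largely on the GK5b libraries and were not worked out for GK5a alone. For Mptx2, Clps, Lyz1 and Pnliprp2, defensin-rich wells held 87.1%, 91.6%, 86.4% and 70.3% of the transcripts in picked libraries and 83.3%, 72.6%, 80.6% and 88.8% in sorted libraries. In single libraries these shares went down to 21.4%, 18.3%, 25.3% and 21.7%.

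The pentraxin pair differed in goblet wells. Mptx1 and Mptx2 both lie on chromosome 1, 1052740 bases apart, and the 300 bases around their starts were 78.0% identical, whereas the other 43 pairs among these windows, Lyz1 and Lyz2 left aside, were 41.2% to 52.9% identical. Both are mucosal pentraxins, and the windows are shown to let the pair be compared (RefSeq, GRCm38.p6; Mptx1 at chr1:174330268-174330567, plus strand; Mptx2 at chr1:173277707-173278006, minus strand), with matches to TATAA and AACAAT, on either strand, in capitals.
Mptx1: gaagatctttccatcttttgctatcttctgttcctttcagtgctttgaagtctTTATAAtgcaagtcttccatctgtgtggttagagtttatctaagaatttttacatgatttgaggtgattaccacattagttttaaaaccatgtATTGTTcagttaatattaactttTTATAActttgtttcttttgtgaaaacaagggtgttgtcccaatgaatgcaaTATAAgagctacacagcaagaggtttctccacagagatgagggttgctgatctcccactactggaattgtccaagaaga
Mptx2: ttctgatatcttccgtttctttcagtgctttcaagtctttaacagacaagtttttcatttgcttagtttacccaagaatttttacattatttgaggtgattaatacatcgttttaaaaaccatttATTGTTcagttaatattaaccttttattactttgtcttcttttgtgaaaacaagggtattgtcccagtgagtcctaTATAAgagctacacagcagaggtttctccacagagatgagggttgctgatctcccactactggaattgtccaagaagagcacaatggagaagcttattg
A TATAA match lay in the windows of 5 of the 9 genes that have one in the table (Mmp7, Itln1, Mptx1, Mptx2 and Nupr1; none was found for Clps) and in 25.5% of 27025 mouse promoter windows. AACAAT, a core of sites bound by SOX proteins, lay in 4 of the 9 (Mmp7, Itln1, Mptx1 and Mptx2) and in 10.9% of all windows. The TCF/LEF core CTTTGAT lay in that of Mmp7, 5 bases after the start on the minus strand, and in 3.70% of all windows. The Mmp7 window (chr9:7691840-7692139, plus strand) is shown because it holds all 3 motifs, with the matches in capitals; a match is only a match of letters.
Mmp7: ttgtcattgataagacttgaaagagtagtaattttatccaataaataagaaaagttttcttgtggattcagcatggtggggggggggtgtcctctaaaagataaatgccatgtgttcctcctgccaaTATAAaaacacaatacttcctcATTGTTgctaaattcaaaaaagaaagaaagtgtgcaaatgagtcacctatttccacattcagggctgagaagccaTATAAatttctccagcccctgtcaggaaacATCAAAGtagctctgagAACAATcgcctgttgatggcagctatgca

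Mptx1 was at 99.8, 0 and 426 CPM in picked goblet wells and at 264, 171, 549, 121, 73.4, 265 and 863 CPM in those of sorted replicates 1 to 7. In other wells it was at 5.58 to 16.8 CPM in picked libraries and 3.29 to 12.1 CPM in sorted libraries, and the difference was 4.33 ± 0.76 (limma, adjusted p = 0.000818, 9 of 10 libraries). A few wells carried it: 30 goblet wells, 1 picked and 29 sorted, held at least 10 Mptx1 transcripts, and the 37 sorted goblet wells with most of it held 92.3% of the transcripts in the 362. Those 30 wells had a median of 0.298% Defa and 5.47% of the 4 goblet genes, while the 289 goblet wells without Mptx1 had 0.0183% Defa and 5.57% of the goblet genes. Of the 30 wells, 3 had no Defa transcript. In sorted replicates 1, 3 and 4 and in picked replicate 3, 1 well held 81.8%, 87.2%, 82.2% and 100% of the goblet-well Mptx1.

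In sorted libraries defensin-rich wells held 83.3% of the Mptx2 transcripts, beside 12.2% of those of Mptx1, whereas in picked libraries they held 87.1% and 83.6%. The sorted Mptx1 share rests largely on the many goblet wells of GK5b replicates 6 and 7. Only 2 goblet wells, both sorted, held at least 10 Mptx2 transcripts, and these had 3.79% and 4.67% Defa, near the 5% threshold. The well in sorted replicate 7 held 606 Mptx2 transcripts, 2.72% of all its transcripts, together with 2.19% goblet-gene transcripts. Without it the goblet level of that library was 14.9 CPM, and with it 508 CPM. Of the 31-base words at the end of each pentraxin gene, 6.38% are shared with the other. Whether the difference between the pair exceeds chance was not tested.

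Across wells within a library, each of the 10 genes was also matched with the other genes that varied most like it. The closest genes of Lyz1, Ang4, Itln1, Mptx2, Clps and Pnliprp2 were led by Gm15284 or Gm14851. Their mean Pearson r within libraries was 0.46 to 0.52 (10 libraries). Both belong to the list of other Paneth markers and lie on chromosome 8, at means of 44462 and 31754 CPM in defensin-rich wells. Defa genes were picked by symbol, so a defensin under another symbol would count in that list. Mptx1 was led by Gm15284 and Retnlb at 0.42 and 0.36, and Habp2 by Reg4 and Gm15284 at 0.35 and 0.34. In the list of 45 other Paneth markers, 33 were tested in defensin-rich against other wells. Of these, 21 were called higher, where 1.75% of all genes tested were, with a median log2 difference of 2.80. The largest were those of Gm14851 (9.69), Gm15284 (9.45), Gm21002 (9.44), Gm15292 (9.35) and AY761184 (8.65). Whether these 5 are defensin genes under other symbols was not checked, so they are no independent markers. Of 16 tested markers of goblet cells beyond the 4 used for the wells, 7 were called higher in defensin-rich wells, led by Ccl6 (5.55) and Spink4 (4.62), and all 16 in goblet wells. In goblet against other wells 16 of the 32 tested Paneth markers were also called higher, where 7.31% of all genes tested were, with a median log2 difference of 0.98. The 2 lists share 5 genes, Agr2, Atoh1, Spdef, Spink4 and Tff3.

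Picked and sorted libraries were compared over all used wells, with 3 libraries against 7. Of the 10 genes, 5 were called higher in picked libraries and 0 lower, where 14.4% of the 10427 genes tested were called higher and 15.7% lower (1503 and 1632 genes, or 837 and 3472 with library totals in place of TMM scaling). These were Ang4 (log2 difference 3.30 ± 0.64), Clps (2.92 ± 0.63), Pnliprp2 (2.02 ± 0.71), Nupr1 (1.91 ± 0.58) and Itln1 (1.85 ± 0.58; limma, adjusted p = 0.00246, 0.00471, 0.0475, 0.0249 and 0.0292). Habp2, at -0.13 ± 0.70, and Mmp7, at 0.21 ± 0.68, were not called and change sign with the scaling, the pseudocount or the library left out. Only 2 of the 10 were called when picked replicate 1 or 2 was left out. The bulk sums alone do not tell more defensin-rich wells from more RNA per well. The share of such wells, given above, did not pass its test at 5% Defa (exact permutation p = 0.1). Their median depth was 31889, 5876 and 2298 transcripts in picked replicates 1 to 3, beside 6097, 2700 and 3542 in other wells there. In sorted libraries it was 3721 to 15804. The part of share and depth in these calls was not tested.

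**Figure D5:**
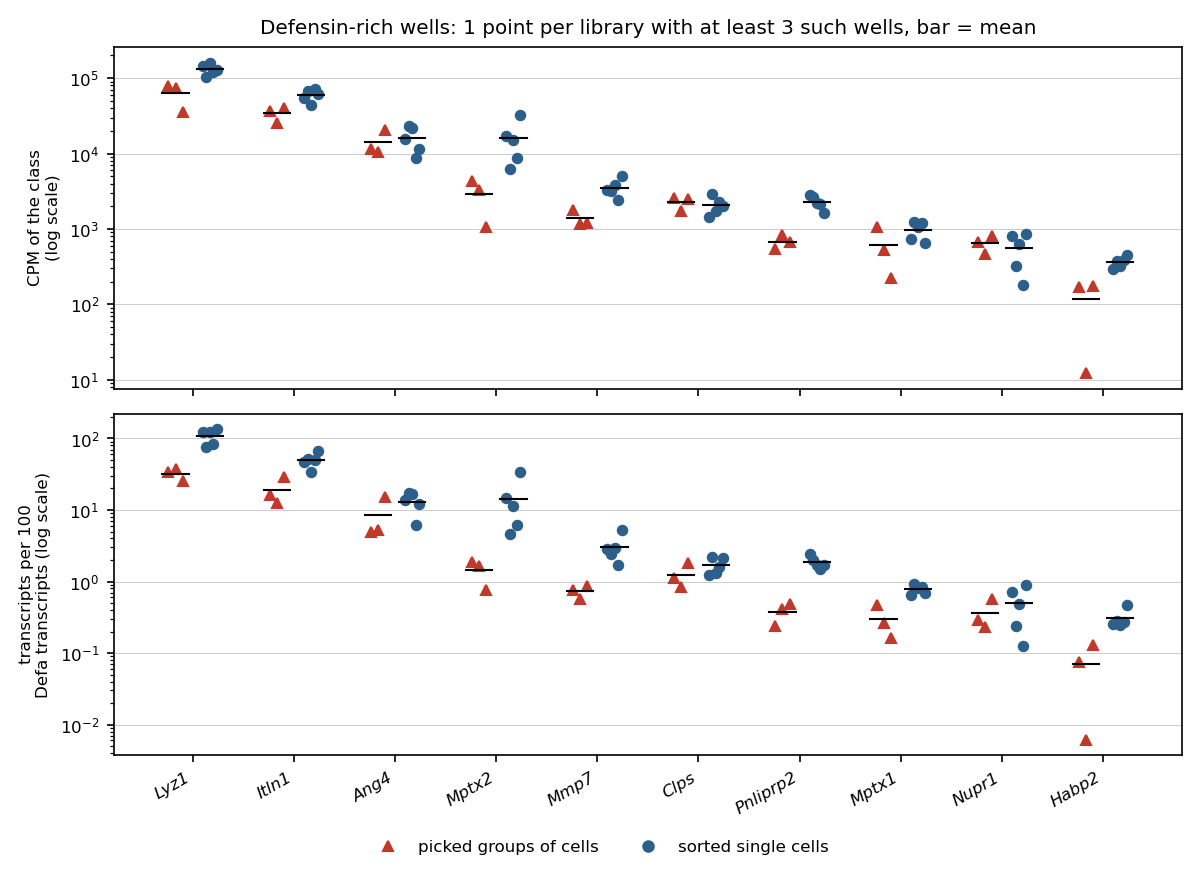
Level of each gene in the defensin-rich wells of picked (triangles) and sorted (circles) libraries, as CPM (upper panel) and per 100 Defa transcripts (lower panel), both on logarithmic axes, with 1 point per library and a bar at the mean. Mptx2, Mmp7, Pnliprp2, Lyz1, Itln1 and Habp2 do not overlap between the groups in either panel, while Ang4, Clps and Nupr1 overlap in both. How many of all genes do not overlap was not counted.

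Within defensin-rich wells, 6 of the 10 genes were called lower in picked wells and 0 higher, where 14% of the 314 genes tested were called lower and 14.6% higher (44 and 46 genes, or 21 and 83 with library totals in place of TMM scaling). They were Mptx2 (log2 difference -2.94 ± 0.56), Habp2 (-2.77 ± 0.74), Pnliprp2 (-2.24 ± 0.29), Mmp7 (-1.84 ± 0.28), Lyz1 (-1.63 ± 0.53) and Itln1 (-1.32 ± 0.41; limma, adjusted p = 0.00454, 0.0181, 0.000938, 0.00197, 0.0392 and 0.0335). Habp2 passed the filter on low values in the 5 sorted libraries and in 0 picked ones, so its call adds no support. Ang4 (-0.64 ± 0.40), Mptx1 (-1.40 ± 0.51), Clps (-0.35 ± 0.30) and Nupr1 (-0.10 ± 0.46) were not called (limma, adjusted p = 0.247, 0.0559, 0.394 and 0.888). A picked well holds more than 1 cell, so a second cell's RNA and a lower level per Paneth cell cannot be told apart from these values. With library totals the Lyz1 and Itln1 calls were lost, at -1.14 and -0.82. With no filter on low genes only Mptx2 was called, and 4 to 7 genes were called as each library was left out in turn: the Lyz1 call was lost without picked replicate 2 or 3 or sorted replicate 1, 2, 4 or 5, and the Itln1 call without picked replicate 2 or 3 or sorted replicate 1, 2 or 5.

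The sum of symbols starting with Defa moved the other way, with overlap. It was 13.8% to 22.9% of the transcripts of picked defensin-rich wells and 9.44% to 14.9% of sorted ones, though the choice of wells rests on it. Per 100 Defa transcripts, an alternative added after the data had been seen, Mptx2 was at 0.770 to 1.90 in picked and 4.69 to 34.2 in sorted libraries, Pnliprp2 at 0.238 to 0.481 and 1.51 to 2.46, and Mmp7 at 0.578 to 0.866 and 1.69 to 5.26. Lyz1 was at 25.4 to 37.1 in picked and 77.2 to 134 in sorted libraries. The groups did not overlap for these 4 genes, nor for Itln1, Habp2 and Mptx1. Ang4, with means of 8.40 in picked and 13.1 in sorted libraries, overlapped, as did Clps and Nupr1. The ratio divides by the sum that chose these wells, so these values are a description with no test. A higher Defa share lowers the ratio of every gene, and how many of all genes do not overlap was not counted. Other goblet markers made up 0.964% to 4.97% of picked defensin-rich wells and 0.685% to 1.68% of sorted ones. The 4.97% was that of picked replicate 3. Spink4, which is also in the list of other Paneth markers, reached 41463 CPM in its highest library. The 4 goblet genes of the well rule made up 0.163% to 0.219% in picked and 0.185% to 0.822% in sorted libraries. Enterocyte markers made up 0.0360% to 0.0620% and 0.0305% to 0.0582%, and stem markers 0.0443% to 0.0642% and 0.0506% to 0.0902%. Immune markers, of which 1 to 5 of 6 were detected in a picked library and 1 of 6 in each sorted one, made up 0.0424% to 0.0709% and 0.00188% to 0.0297%, with no overlap. Other Paneth markers made up 16.97% to 23.4% of picked defensin-rich wells and 20.7% to 30.9% of sorted ones. That list may hold defensins under other symbols, so the Defa sum may not stand for all defensins. The part of these lists in the result was not tested.

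The contrast between defensin-rich and other wells was smaller in picked than in sorted libraries for every gene, and the difference between the groups was itself called for 4 of the 10, where 0.199% of the 8060 genes tested were called in that direction. Mptx2 differed by -5.58 ± 0.74, Ang4 by -5.01 ± 0.62, Lyz1 by -3.64 ± 0.39 and Itln1 by -3.53 ± 0.37 (limma interaction, adjusted p = 0.00064, 0.000314, 7.24e-05 and 5.85e-05). For Ang4 the groups stood apart in other wells: its defensin-rich levels overlapped between the groups, while in other wells it was at 321, 81.0 and 1343 CPM in picked libraries and at 5.48 to 30.6 CPM in sorted libraries. The highest well held 8.63%, 15.5% and 58.8% of the Ang4 transcripts in the other wells of picked replicates 1, 2 and 3. For goblet against other wells the interaction was called for Lyz1 (-2.85 ± 0.56) and Itln1 (-2.81 ± 0.39; limma, adjusted p = 0.0298 and 0.0141), 2 of the 10, where 1.71% of the 9702 genes tested were called in that direction. For defensin-rich against goblet wells limma called 0 of the 10, with 5 at an unadjusted p under 0.05 and 5 of the 1582 genes called in all.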

How the data were processed

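Transcripts were measured by CEL-seq2 in 10 plates of 384 wells, 3 picked and 7 sorted, of mouse small-intestinal crypt cells. The deposited values are estimated transcript counts per gene and well that the authors corrected for shared molecule barcodes: they map back to whole numbers of distinct 6-base barcodes out of 4096, within 0.001. BWA 0.6.2-r126 and the build mm10 are named per the submitters' processing notes; the counter, its strand setting and any well filter are, in the sources used here, not given. Because the values are corrected estimates, they were analysed on a log2(CPM + 1) scale and not with a count model.

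The 10 genes and all gene lists were chosen with earlier results of these data known. Spike-ins of 85 species were left out of well sums, which had to reach 1000. Wells were summed per library and class, with at least 3 wells of a class, scaled by TMM, and kept for genes with the equivalent of 10 transcripts at the median total in 3 columns and 15 in all. limma 3.58.1 (R 4.3.3, moderated with a trend, library as block for comparisons within libraries) gave Benjamini-Hochberg adjusted p over all genes tested, called under 0.05. The labels' library is the pairing: both classes come from the same plate. Single values were tested with exact permutation in scipy 1.17.1 (Python 3.11.15, numpy 2.4.6, pandas 2.3.3). All scripts that fit many genes were tested on simulated data. The text names the 10 genes, for each the 3 genes most correlated with it within libraries across wells, up to 5 leading genes of each marker list, and paralogs; the goblet markers named beside them were chosen after their values were seen. Doublets were not called, and picked wells hold several cells by design. Limits for counts of 0 stand for 3 counts and cover counting error only.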

Additional observations from a re-analysis of the deposited data

Results flagged for a closer look

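Of 31 groups of 4 to 10 libraries examined for a library far from the others, 3 held one, where chance gives about 1 in 20. Ang4 in goblet wells was at 189 CPM in sorted replicate 7, against at most 51.4 CPM in the other sorted libraries. There 1 goblet well, the one described above with 606 Mptx2 transcripts and 3.79% Defa, held 139 Ang4 transcripts. That was the most of any sorted goblet well. Ang4 in other wells was at 30.6 CPM in sorted replicate 2, against 5.48 to 12.8 CPM in the other sorted libraries, and 1 well held 61.4% of those transcripts. Mptx2 in goblet wells was at 508 CPM in sorted replicate 7, against 0 to 16.3 CPM in the other sorted libraries, and 1 well held 97.1% of those transcripts.

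Of 30 tests of a difference between picked and sorted libraries in the same contrast, 6 passed the threshold in limma. In defensin-rich against other wells the log2 difference in picked libraries was smaller by an interaction of -3.64 for Lyz1, -5.01 for Ang4, -3.53 for Itln1 and -5.58 for Mptx2. In goblet against other wells it was smaller by -2.85 for Lyz1 and -2.81 for Itln1. The Defa level of other wells, 1345 to 4565 CPM in picked and 46.9 to 202 CPM in sorted libraries, moved with these results, and its part in them was not tested.

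Among the wells of 200 to 1000 transcripts, which entered no comparison, 26 of 352 sorted wells and 1 of 111 picked wells were defensin-rich. Lyz1 made up 7.09% and Itln1 5.21% of the transcripts of the 26 sorted wells.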

How the results depend on the processing

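Counts below are of the 10 genes called. All 10 stayed higher in defensin-rich wells against other wells under every alternative that tested them. Against goblet wells all did so except Mptx1 and Pnliprp2 in picked libraries alone and Mptx1 with no filter on low genes. Calls of genes that passed the filter through their defensin-rich or goblet level alone, named above, add no support. In goblet against other wells, where 6 were called, voom weights gave 10, picked libraries alone 1 and leaving out single libraries 5 to 7. Without the replicate block the counts were 10 for defensin-rich against other wells, 4 for goblet against other wells (Lyz1 and Ang4 lost) and 10 for defensin-rich against goblet wells. For picked against sorted libraries, where 5 were called, no filter on low genes gave 3, means per well 2, GK5b libraries alone 3 and leave-one-out 2 to 5; for defensin-rich wells, where 6 were called, these gave 1, 2, 3 and 4 to 7, the GK5b value resting on 1 sorted library, assumed to vary like the picked ones. The share of defensin-rich wells differed by 4.22 points at 2% Defa and by 1.35 to 3.12 as libraries were left out. Over all alternatives, the genes called numbered 45 to 748 in defensin-rich against other wells (141 as reported), 19 to 2085 in goblet against other (709), 27 to 147 in defensin-rich against goblet (72), 837 to 1744 higher in picked libraries (1503) and 5 to 66 lower in picked defensin-rich wells (44). Library totals moved the median of all genes from -2.01 to -2.60, -0.48 to -1.56, -0.07 to -0.40 and 0.04 to 0.53 in defensin-rich against other, defensin-rich against goblet, picked against sorted, and picked against sorted defensin-rich wells.

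Log2 differences that changed sign had not been called, except Lyz1. In goblet against other wells, picked libraries alone gave Lyz1 -0.47, Clps -1.29, Mptx2 -1.95 and Pnliprp2 -1.09. Mptx2 was -1.77 at 10% Defa, -0.40 at 2% Defa, -1.60 at 4% goblet, -0.089 with library totals, -0.14 with a pseudocount of 0.5 and -0.52 to 0.59 as libraries were left out. Pnliprp2 was -0.51 at 10% Defa and -0.85 at 4% goblet. Both settings also change which wells count as other wells, as given above. In picked against sorted defensin-rich wells, no filter gave Ang4 0.062, Clps 0.35 and Nupr1 0.60, library totals gave Clps 0.14 and Nupr1 0.39, means per well gave Nupr1 0.71, and leave-one-out gave Nupr1 -0.41 to 0.21. In picked against sorted libraries, Habp2 was 0.26 against GK5a alone, 0.066 and 0.16 with pseudocounts of 5 and 50, and -1.40 to 0.54 in leave-one-out. Mmp7 was -1.44 against GK5b alone, -0.13 with library totals, -0.99 with means per well and -0.49 to 0.79 in leave-one-out. Mptx1 was -0.73 against GK5b alone, -0.47 with means per well and -0.17 to 1.35 in leave-one-out. The cause was not tested in any of these. The pseudocount of 50, thinning of both classes to one total and the values per 100 Defa transcripts were chosen after seeing the data; thinning gave 10, 6 and 10 genes called in the 3 comparisons of wells. With a median of 2756 to 16427 transcripts per well, detection of Mptx1, Habp2 and Nupr1 in single wells is limited by depth.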
